A study of Mus musculus with 24 samples.

Results

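The genes described here are 10 genes of bile acid synthesis and transport in mouse liver, chosen by symbol from a list. The list was made with earlier results of these data known. Its 10 genes were found among the 18820 genes that the array measures with a probe set assigned to a single gene. All 10 had exactly 1 such probe set. They cover several functions. Cyp7a1, Cyp8b1, Cyp7b1 and Cyp27a1 are the oxidizing enzymes of the pathway, Slc27a5 and Baat attach the amino acid to the finished bile acid, Abcb11, Abcc3 and Slc10a1 carry bile acids across the hepatocyte membrane, and Nr0b2 encodes a repressor of the first enzymes.

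The livers came from male mice of a C57Bl/6 background (C57BL/6J in the labels), 4 to 6 months old, which ate 1 of 3 high fat diets for 7 weeks, with 8 mice per diet and an array for each mouse. The diets supplied 45% of energy as fat, from partially hydrogenated soy oil in the Trans group, canola and palm olein oil in the Cis group and cocoa butter in the Saturated group. No group ate a low fat diet, so each difference is between high fat diets. Total RNA of whole liver was measured, in which fewer cells of a type and less RNA per cell cannot be told apart.

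Hepatocytes make bile acids from cholesterol, which makes the pathway the main route by which the body disposes of this sterol. In the classic route Cyp7a1 takes the first and rate-limiting step and Cyp8b1 sets the share of cholic acid, whereas in the alternative route Cyp27a1 oxidizes the side chain in the mitochondrion and Cyp7b1 adds the 7α-hydroxyl group. Bile acids leave the cell into bile through Abcb11, return from portal blood through Slc10a1 and, when they accumulate, can leave into blood through Abcc3. They activate the nuclear receptor FXR, which raises Abcb11 and Nr0b2, and the product of Nr0b2 (SHP) in turn represses Cyp7a1 and Cyp8b1.

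The regulatory stretch before the start of transcription was available for 5 of the 10 genes (Cyp8b1, Cyp27a1, Abcb11, Slc10a1 and Nr0b2) in RefSeq, build GRCm38.p6, as the 250 bases before the start, with 2 starts for Slc10a1. The 3 stretches printed are those with a match to a searched motif, 5′ to 3′ in the direction of transcription, with the matched bases in capitals. They belong to the bile salt export pump (Abcb11, chr2:69342617-69342866, minus strand), to sterol 27-hydroxylase (Cyp27a1, chr1:74713285-74713534, plus strand) and to the bile acid uptake carrier (Slc10a1, chr12:80968080-80968329, minus strand).
Abcb11: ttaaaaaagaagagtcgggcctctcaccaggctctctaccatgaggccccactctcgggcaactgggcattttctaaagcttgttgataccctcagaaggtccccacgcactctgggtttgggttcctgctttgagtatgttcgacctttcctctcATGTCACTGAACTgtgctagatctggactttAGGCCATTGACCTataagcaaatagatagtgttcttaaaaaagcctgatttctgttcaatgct
Cyp27a1: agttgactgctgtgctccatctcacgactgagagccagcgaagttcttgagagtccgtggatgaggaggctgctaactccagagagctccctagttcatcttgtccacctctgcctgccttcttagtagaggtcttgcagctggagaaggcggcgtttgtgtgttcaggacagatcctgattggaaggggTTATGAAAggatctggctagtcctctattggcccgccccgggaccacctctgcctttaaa
Slc10a1: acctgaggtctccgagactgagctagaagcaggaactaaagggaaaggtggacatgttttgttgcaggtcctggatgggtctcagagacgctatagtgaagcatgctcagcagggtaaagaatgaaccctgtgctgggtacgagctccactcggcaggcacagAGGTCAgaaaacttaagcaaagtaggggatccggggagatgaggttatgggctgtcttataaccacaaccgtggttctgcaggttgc

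Both strands were searched for 4 motifs. The inverted repeat of the FXR type, AGGTCANTGACCT with up to 2 mismatches, stood at 2 places before Abcb11, as ATGTCACTGAACT 94 to 82 bases and as AGGCCATTGACCT 63 to 51 bases before the start, and at none in the other 4 genes. Among all 32851 promoters of the same length 0.959% held this repeat. The nuclear receptor core motif AGGTCA was present in Abcb11, as part of the nearer repeat, and 87 to 82 bases before 1 start of Slc10a1, against 14% of all promoters. A loose form of the D-box, TTATGNAA with any base at N, matched as TTATGAAA 60 to 53 bases before Cyp27a1. This loose form was in 3.07% of all promoters. The D-box, a site for clock-controlled factors, is usually written with C or T at that base, so the match is not to its usual form. The longer form of the nuclear receptor motif, AAGGTCA, which 4.08% of all promoters held, was in none of these stretches. A match is a description of letters, and binding was not measured.

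All values are log2 signals after RMA normalization, and signals are given brought back to the linear scale in array units, which serve to compare livers for 1 gene and not 1 gene with another. The members were well measured, with a lowest signal of 78.1 in any liver. Array medians ran from 2.94 to 3.06 (log2), and each array correlated with the others at a median of 0.975 (Trans replicate 4) to 0.986. The mean log2 signal of the 8 measured hepatocyte markers was 11.82 to 12.04 over the 24 livers, and that of 6 cholangiocyte markers 2.47 to 3.61. The highest cholangiocyte level was that of Trans replicate 4, followed by 3.18 in Saturated replicate 5. Trans replicates 1 and 4 stood apart in the mean of the 7 stellate cell markers, at log2 signals of 5.77 and 5.50 against 4.51 to 5.20 in the other livers. Not all 7 were raised. Acta2 (6.84 and 6.80), Col1a1 (6.48 and 6.10) and Col3a1 (6.76 and 6.34) were higher in these livers than in any other. Lrat (6.58) and Reln (6.80) were at their lowest of all livers in Trans replicate 4. In Trans replicate 1 they lay within the range of the other livers (7.25 and 7.02). Trans replicate 1 also had the lowest hepatocyte marker level and was the lowest Trans liver for 4 of the 10 members, and Trans replicate 4 was the lowest for 3.

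No bile acid gene passed the test across the array in any of the 3 comparisons. With limma and Benjamini-Hochberg adjustment over 35556 probe sets, 0 of 10 were called in Trans versus Saturated, where 0.00844% of all probe sets were called, 0 of 10 in Trans versus Cis (0.00281% of all) and 0 of 10 in Cis versus Saturated (0% of all). The few calls over the array varied with the livers used, from 1 to 16 probe sets in Trans versus Saturated when 1 liver was left out (16 without Saturated replicate 2, against 3 with all), 0 to 2 in Trans versus Cis and 0 to 3 in Cis versus Saturated, with 0 members among them. Below an unadjusted p of 0.05 the Trans versus Saturated comparison held 1 higher member, Abcc3, and 2 lower ones, Cyp27a1 and Slc10a1, beside 3.79% of all probe sets for higher levels and 3.54% for lower ones. Cis versus Saturated held 1 higher, Abcc3, and 1 lower, Cyp27a1, beside 3.3% and 3.27% of all probe sets. Trans versus Cis held 0 in either direction, beside 3.05% and 3.12%. Of the 8298 genes with a mean signal over 20, 469 were higher and 464 lower at this limit in Trans versus Saturated. The counts were 270 and 394 in Cis versus Saturated and 373 and 226 in Trans versus Cis. Both comparisons with the Saturated group use the same 8 Saturated livers, so their values are not independent.

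In direction, 9 of 10 members had a lower mean in the Trans than in the Saturated livers, with a median log2 difference of −0.15, while 50.1% of all probe sets were lower. Against the Cis livers, 7 of 10 were lower in Trans (median −0.05, with 51.1% of all probe sets lower). Between Cis and Saturated, 7 of 10 were lower in Cis (median −0.10, with 48.7% of all probe sets lower). Among the 8298 genes with a mean signal over 20, which are closer in level to the members, 51% were lower in Trans than in Saturated, 44.8% lower in Trans than in Cis and 56.5% lower in Cis than in Saturated. Without Trans replicates 1 and 4, the mean of 9 of 10 members was lower in Trans than in Saturated livers (median −0.04), beside 17883 of 35556 probe sets. The differences of Cyp8b1, Cyp7b1, Abcb11, Nr0b2, Baat and Slc27a5 were smaller than their standard errors, and those of Cyp7a1, Cyp27a1 and Slc10a1 were larger. At the unadjusted limit stood 1 higher and 1 lower member, beside 3.21% and 2.86% of all probe sets, with 0 members and 0 probe sets called. In that setting 4 of 10 were lower in Trans than in Cis (median 0.02), beside 18285 of 35556 probe sets. Both livers were chosen after their values were seen and were the lowest of the Trans group for Cyp27a1, Slc10a1, Nr0b2 and Baat, so leaving them out had to move these values up.

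**Figure D1:**
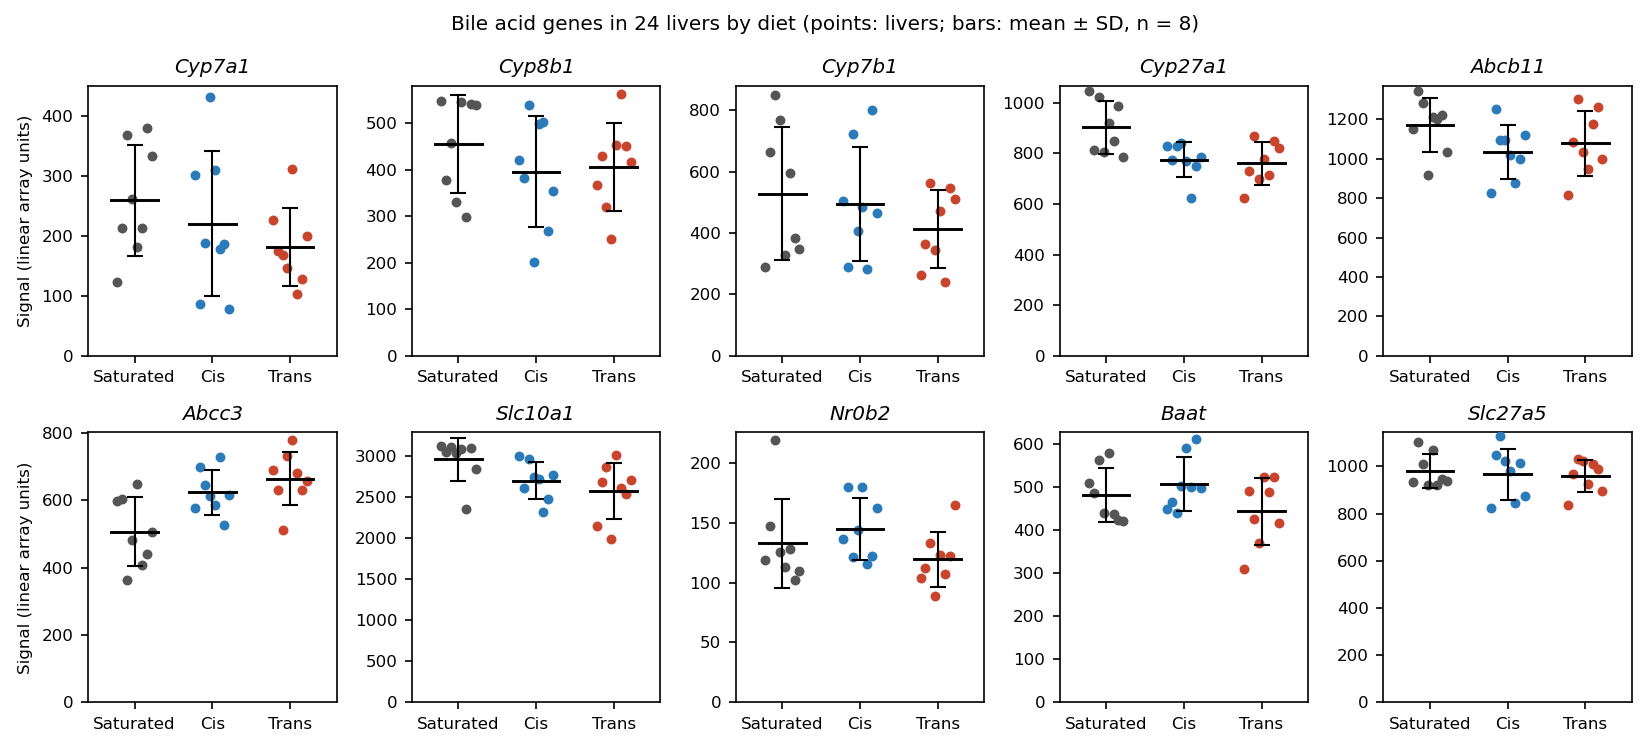
Linear signal (array units, axes from 0) of the 10 bile acid genes in the 8 livers of each diet, where points are livers and bars give the mean ± SD. Abcc3 lies higher in the Cis and Trans livers than in most Saturated livers, Cyp27a1 and Slc10a1 lie lower, and Cyp7a1 and Cyp7b1 scatter widely within each diet.

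Among the enzymes, the lowest p was that of Cyp27a1, the mitochondrial sterol 27-hydroxylase that starts the alternative route. Its signal had a lowest, median and highest value of 624, 754 and 870 in the Trans livers, 624, 780 and 841 in the Cis livers and 784, 884 and 1045 in the Saturated livers. The groups overlapped, with 5 of 8 Trans livers below every Saturated liver and 4 of 8 Saturated livers above every Trans liver. The means were 761 ± 84.5 (SD, n = 8) in Trans, 776 ± 69.5 in Cis and 903 ± 105 in Saturated.

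For Trans versus Saturated the log2 difference of Cyp27a1 was −0.25 (standard error 0.08, 95% interval −0.41 to −0.08), a 1.19-fold lower level. All 8 Trans livers were below the Saturated mean. By limma the adjusted p was 0.472 (0.0052 unadjusted), and an exact two-sided permutation test of this gene alone gave p = 0.0106. The Cis livers differed from the Saturated livers by about the same amount, −0.22 (standard error 0.08), again with 8 of 8 below the Saturated mean (adjusted p = 0.642, limma, and p = 0.0121 by the exact permutation test). Between Trans and Cis the difference was −0.03, with an interval of −0.20 to 0.14. Without Trans replicates 1 and 4 the Trans versus Saturated difference was −0.18 and the Trans versus Cis difference 0.04.

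Cyp7a1, cholesterol 7α-hydroxylase, had the largest mean difference between Trans and Saturated among the 10 genes and also the widest scatter. The lowest, median and highest signals were 103, 171 and 312 in Trans, 78.1, 188 and 433 in Cis and 123, 238 and 380 in Saturated. Only 3 Saturated livers lay above every Trans liver, and the Cis livers spanned both other groups. The log2 difference of Trans versus Saturated was −0.49 (standard error 0.31, interval −1.14 to 0.15, adjusted p = 0.788, limma), with 7 of 8 Trans livers below the Saturated mean and p = 0.0839 by the exact permutation test. Cis versus Saturated differed by −0.36 (standard error 0.31).

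Cyp8b1, sterol 12α-hydroxylase, had medians of 423 in Trans, 401 in Cis and 498 in Saturated, with ranges of 252 to 562, 203 to 540 and 299 to 548. The ranges overlapped almost fully. Its log2 difference was −0.16 (standard error 0.19) in Trans versus Saturated and −0.23 (standard error 0.19) in Cis versus Saturated. Cyp7b1, the oxysterol 7α-hydroxylase, ranged from 240 to 563 in Trans, from 284 to 800 in Cis and from 291 to 848 in Saturated, with medians of 417, 475 and 490. Here 4 of 8 Saturated livers lay above every Trans liver, while 2 Trans livers lay below every Saturated liver, and the log2 difference was −0.31 (standard error 0.26, interval −0.85 to 0.22).

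These 3 enzymes were among the most variable genes of the liver within a diet. The standard deviation between livers of a diet, on the log2 scale, was 0.66 for Cyp7a1, 0.54 for Cyp7b1 and 0.41 for Cyp8b1. Among 8298 genes with a mean signal over 20, with a median of 0.17, these values exceeded 99.0%, 98.4% and 95.7% of genes. Cyp27a1, at 0.16, exceeded only 39.0%. Transcription of Cyp7a1 follows the time of day in mice, and the hour at which these mice were killed is not given in the sources used here. The mean log2 level of 11 clock genes ran from 4.87 to 5.57 in Trans, 5.06 to 5.51 in Cis and 4.92 to 5.56 in Saturated livers, and 0 of the 11 had an unadjusted p under 0.05 in any comparison. The list mixes genes that peak at different hours, so its mean cannot show a shift in time of day. Single clock genes had standard errors from 0.20 (Clock) to 0.71 (Npas2) in Trans versus Saturated. The part of the clock genes in the scatter was not tested.

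The conjugating enzymes differed little between diets. Slc27a5, which activates bile acids with coenzyme A, had medians of 978 in Trans, 998 in Cis and 941 in Saturated, within ranges of 837 to 1030, 823 to 1128 and 921 to 1105. Its log2 difference was −0.03 in Trans versus Saturated (interval −0.17 to 0.11), and it had the smallest scatter of the 10, at 0.13. Baat, which joins the activated bile acid to taurine or glycine, had medians of 457, 499 and 463 and ranges of 310 to 523, 441 to 612 and 421 to 578 in Trans, Cis and Saturated.

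In Baat the Trans livers reached lower than the others, with 4 of 8 below every Cis liver. The log2 difference was −0.21 in Trans versus Cis (standard error 0.10, interval −0.42 to 0.01, adjusted p = 0.802 and unadjusted 0.0607, limma) and −0.13 in Trans versus Saturated (standard error 0.10). The exact permutation test of Trans versus Cis gave p = 0.0869. Without Trans replicates 1 and 4, the 2 lowest Trans livers for this gene, the values were −0.08 and −0.01.

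Among the transporters, Abcc3 had the lowest p of all members in Trans versus Saturated. This basolateral efflux pump (MRP3) had signals of 512, 667 and 780 (lowest, median and highest) in Trans, 525, 614 and 728 in Cis and 362, 494 and 648 in Saturated livers. There were 5 Saturated livers below every Trans liver and 5 Trans livers were above every Saturated liver, so that the groups overlapped in the remaining livers. Means were 663 ± 79.3 (SD, n = 8) in Trans, 623 ± 65.9 in Cis and 506 ± 102 in Saturated.

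The log2 difference of Abcc3 was 0.41 in Trans versus Saturated (standard error 0.11, interval 0.18 to 0.63), a 1.33-fold higher level, and all 8 Trans livers exceeded the Saturated mean. Its adjusted p was 0.311 by limma (0.000934 unadjusted), and the exact permutation test of this gene alone gave p = 0.00528. Cis versus Saturated differed by 0.32 (standard error 0.11), and all 8 Cis livers exceeded the Saturated mean (adjusted p = 0.638, limma, and p = 0.0174 by the exact permutation test). Trans and Cis differed by 0.09 (interval −0.13 to 0.31). Without Trans replicates 1 and 4 the Trans versus Saturated value was 0.37.

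Slc10a1, the sodium-dependent carrier (NTCP) that takes up conjugated bile acids from portal blood, had signals of 1992, 2647 and 3010 in Trans, 2322, 2727 and 2994 in Cis and 2354, 3064 and 3121 in Saturated. In all, 6 of 8 Saturated livers were above every Trans and every Cis liver, while Saturated replicate 6 lay within the lower range of the other groups. The log2 difference of Trans versus Saturated was −0.21 (standard error 0.08, interval −0.38 to −0.04, adjusted p = 0.575, limma), with 7 of 8 Trans livers below the Saturated mean and p = 0.0274 by the exact permutation test. Trans replicates 1 and 4 were the lowest Trans livers for this gene. Leaving them out, a choice made after their values were seen that had to shrink the difference, gave −0.11 (adjusted p = 0.897, limma) versus Saturated and 0.02 versus Cis. The Cis versus Saturated difference was −0.13 (standard error 0.08, interval −0.30 to 0.03).

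Abcb11, the canalicular bile salt export pump whose promoter holds the repeats shown above, had medians of 1061 in Trans, 1057 in Cis and 1208 in Saturated. Its ranges were 817 to 1304, 826 to 1253 and 917 to 1343 and overlapped widely. The log2 difference was −0.12 in Trans versus Saturated (standard error 0.10, interval −0.33 to 0.08) and −0.18 in Cis versus Saturated (standard error 0.10, interval −0.38 to 0.03).

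Nr0b2 encodes the orphan receptor SHP, which lacks a DNA-binding domain and represses other nuclear receptors. Its signals were 89.1, 117 and 165 in Trans, 116, 140 and 180 in Cis and 102, 122 and 219 in Saturated. Of the 8 Trans livers, 4 were below every Cis liver. The log2 difference was −0.28 in Trans versus Cis (standard error 0.14, interval −0.57 to 0.01, adjusted p = 0.802, limma), with 7 of 8 Trans livers below the Cis mean. Its unadjusted p was 0.0562 by limma and 0.0497 by the exact permutation test. Versus Saturated it was −0.13 (standard error 0.14) in Trans and 0.15 (standard error 0.14) in Cis. Without Trans replicates 1 and 4 the values of Trans were −0.19 versus Cis and −0.04 versus Saturated.

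**Figure D2:**
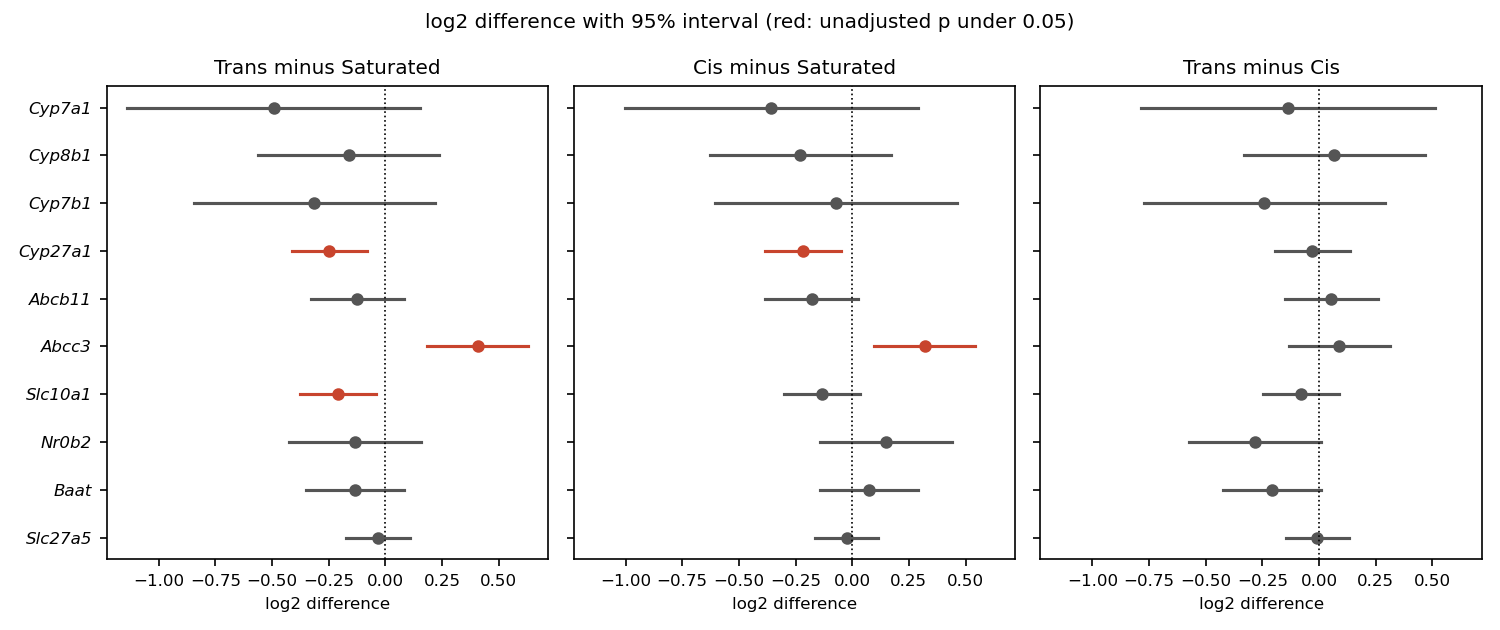
log2 difference (point) with its 95% interval (line) for each gene in the 3 comparisons, where red marks an unadjusted p under 0.05 (limma). The intervals of Abcc3 and Cyp27a1 lie to 1 side of 0 in both comparisons with the Saturated group, that of Slc10a1 only in Trans minus Saturated, and none does in Trans minus Cis.

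Markers of stellate cells and hepatocytes are given beside these values, and none was called. Of 7 stellate markers, 5 had a higher mean in Trans than in Saturated livers, 3 of them at an unadjusted p under 0.05 (Col1a1, Col3a1 and Acta2), and 1 lower gene, Lrat, also passed that limit. Their mean log2 level was 4.68 to 5.77 in Trans, 4.51 to 5.06 in Cis and 4.57 to 4.94 in Saturated livers. Of 8 hepatocyte markers, 7 were lower in Trans than in Saturated, by a median of −0.03, 2 of them at an unadjusted p under 0.05 (Cps1 and Tat). Their mean level was 11.82 to 11.99 in Trans, 11.86 to 12.00 in Cis and 11.92 to 12.04 in Saturated. Over all probe sets, 50.1% were lower in Trans than in Saturated, with 3.79% higher and 3.54% lower under that limit. The part of cell composition in the differences of bile acid genes was not tested.

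Other genes of bile acid metabolism were read from 4 lists with 61 genes, of which 56 were measured. None was called in any comparison. In Trans versus Saturated, 4 of the 56 were higher and 5 lower at the unadjusted limit. These are 7.14% and 8.93% of them, beside the 3.79% and 3.54% of all probe sets given above. Of the 8298 genes with a mean signal over 20, 469 were higher and 464 lower at that limit. In Cis versus Saturated, 6 were higher and 3 lower (10.7% and 5.36%), beside 3.3% and 3.27% of all probe sets. In Trans versus Cis, 1 was higher and 1 lower (1.79% each), beside 3.05% and 3.12% of all probe sets. Without Trans replicates 1 and 4 the Trans versus Saturated counts were 4 higher and 3 lower (7.14% and 5.36%), beside 3.21% and 2.86% of all probe sets. Abcg5 (0.29), Abcg8 (0.33), Ppargc1a (−0.28) and Slco1a1 (−0.22) were then no longer under the limit, while Slc27a2 (0.15) and Abcg2 (0.31) came under it.

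Of 17 measured genes of synthesis, Cyp2c70, which makes the muricholic acids of the mouse, and Cyp39a1, a 7α-hydroxylase of 24-hydroxycholesterol, were lower in Trans than in Saturated livers at that limit, and Hsd17b4, a peroxisomal enzyme of side chain shortening, was higher. The log2 difference of Cyp2c70 was −0.47 (standard error 0.14, adjusted p = 0.374, limma) in Trans and −0.30 (standard error 0.14) in Cis versus Saturated, and 0 of 8 Trans livers exceeded the Saturated mean. Cyp39a1 was lower by the same amount under both diets, at −0.52 (standard error 0.22). Hsd17b4 differed by 0.16 in Trans and 0.15 in Cis (standard error 0.06), and Acox2, which also acts on the side chain, by 0.14 and 0.17 (standard error 0.08). Acox2 was under the limit only in Cis versus Saturated (unadjusted p = 0.0447, limma), and not in Trans versus Saturated (unadjusted p = 0.113, limma). The single synthesis gene at that limit in Trans versus Cis was Acnat1, an acyltransferase related to Baat, at −0.19 (standard error 0.09), which was named after its value was seen.

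Of 17 transporters and related genes, Abcg5 and Abcg8, the paired subunits of the canalicular cholesterol pump, were higher in Trans than in Saturated livers, by 0.34 (standard error 0.16) and 0.40 (standard error 0.18). Abcg5 was added to the named genes after its value was seen. Slco1a1, an organic anion carrier of the sinusoidal membrane, differed by −0.86 (standard error 0.40), and by −0.22 without Trans replicates 1 and 4. Ephx1, the microsomal epoxide hydrolase, differed by 0.29 (standard error 0.12) in Cis versus Saturated. Abcc4, a basolateral pump like Abcc3, was the gene higher in Trans than in Cis livers at that limit, by 0.41 (standard error 0.12), at signals of only 12.1 and 9.10 (means of log2 values brought back).

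Among 16 measured sensors and regulators, 8 had lower means under the Trans than under the Saturated diet, 2 of them at the unadjusted limit (adjusted p = 0.620 and 0.622, limma). They were Ppargc1a, a coactivator of hepatic transcription, at −0.33 (standard error 0.14), and Klb, the coreceptor through which the gut hormone FGF15 represses Cyp7a1, at −0.22 (standard error 0.09). In Cis versus Saturated Ppargc1a differed by −0.51 (standard error 0.14), and 0 of 8 Cis livers exceeded the Saturated mean. Nr1i2, the pregnane X receptor, differed by 0.16 (standard error 0.08) and Gpbar1, a membrane receptor of bile acids, by 0.23 (standard error 0.08). The mean signal of Gpbar1 was 7.80 or less in each diet (means of log2 values brought back). Of 6 measured detoxification genes, Cyp3a11, a hydroxylase of bile acids and drugs, was higher in 8 of 8 Trans and 8 of 8 Cis livers than the Saturated mean, by 0.39 and 0.37 (standard error 0.10, adjusted p = 0.260 and 0.499, limma). Close relatives of Cyp3a11 could share its probes, which was not tested.

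**Figure D3:**
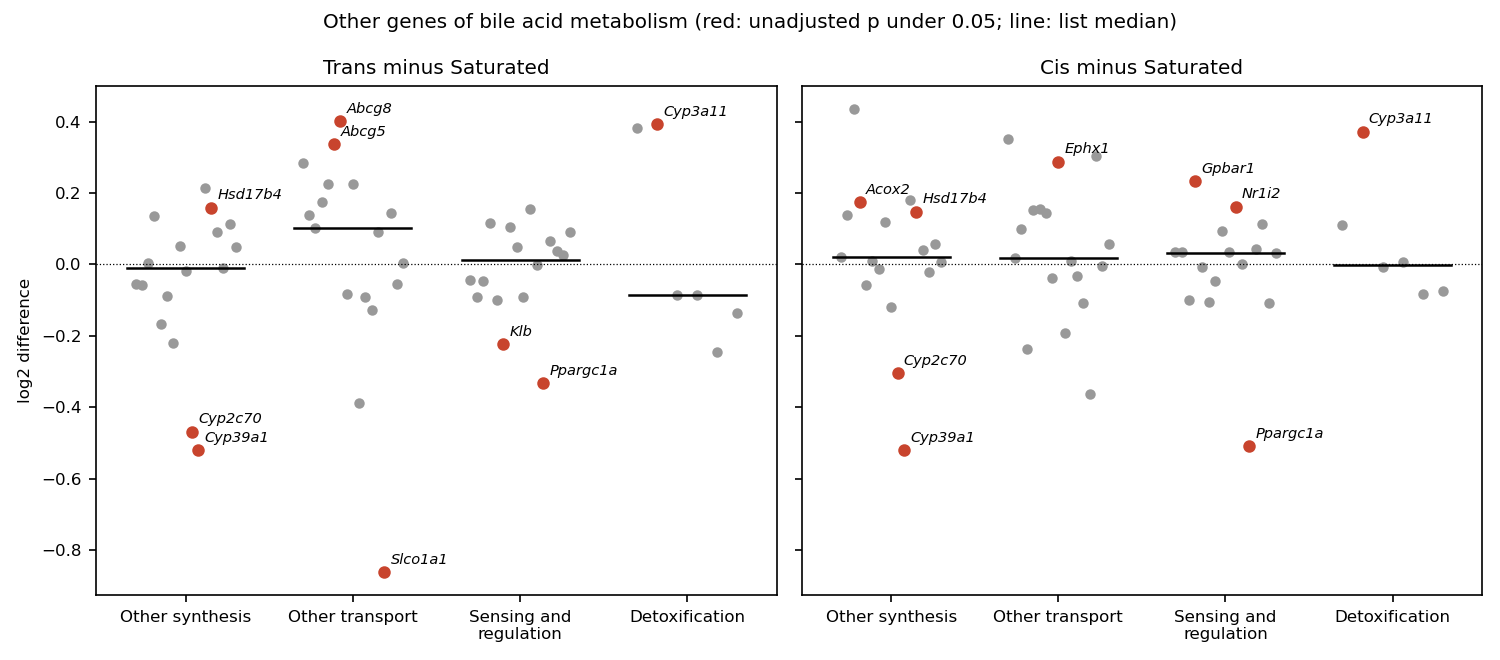
log2 difference of 56 other genes of bile acid metabolism in 4 lists, for Trans minus Saturated and Cis minus Saturated, where red points have an unadjusted p under 0.05 (limma), gray points do not, and lines are list medians. Cyp2c70, Cyp39a1 and Ppargc1a lie low and Hsd17b4 and Cyp3a11 high in both panels, which share the Saturated livers.

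The 10 genes were also followed from liver to liver within the diets, after the mean of each diet was taken off. Of 45 pairs, 30 had a Pearson r above 0, r ran from −0.57 to 0.72 with a median of 0.17, and 2 pairs passed a permutation test within diets after adjustment over the 45 pairs. Abcb11 and Slc27a5 rose and fell together, with r = 0.716 and rho = 0.661 over 24 livers (permutation p = 0.00014 and 0.00089, adjusted p = 0.0063 and 0.027). Their r was 0.66 in Saturated, 0.70 in Cis and 0.85 in Trans livers, and 0.60 without the 2 livers farthest from the median of Abcb11.

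Cyp27a1 and Slc10a1, which differed in the same direction between Trans and Saturated, were the second pair, with r = 0.632 and rho = 0.643 (permutation p = 0.00119 and 0.0012, adjusted p = 0.0268 and 0.027). Within diets r was 0.43 in Saturated, 0.87 in Cis and 0.68 in Trans, it was 0.50 without the 2 farthest livers and 0.54 without Trans replicates 1 and 4. Cyp7b1 and Abcc3 ran opposite to each other, with r = −0.568 and rho = −0.563, but did not pass the adjustment (adjusted p = 0.129 and 0.146). The r of Cyp7a1 was 0.04 with its repressor Nr0b2 and −0.13 with the other classic enzyme, Cyp8b1, and that of Cyp8b1 with Nr0b2 was −0.03. Levels on 1 array share its RNA, its normalization and its cell content, which correlations include.

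**Figure D4:**
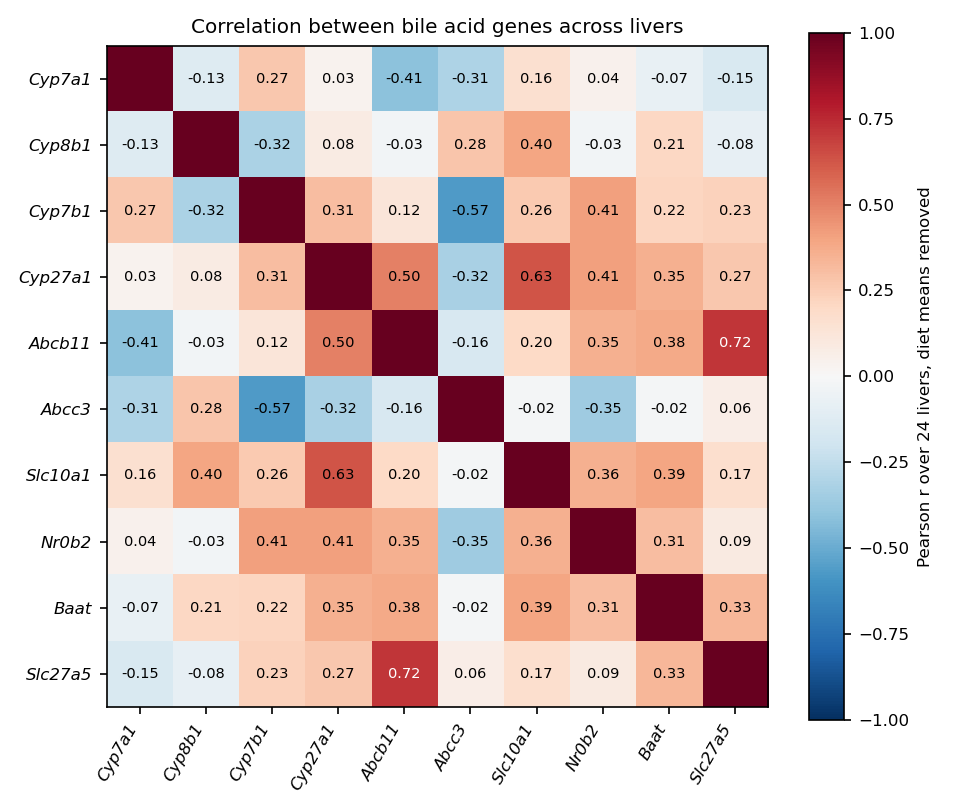
Pearson r between each pair of the 10 genes over 24 livers after the diet means were taken off, on a color scale from −1 to 1. The highest value is that of Abcb11 with Slc27a5 (0.72) and the lowest that of Cyp7b1 with Abcc3 (−0.57).

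**Figure D5:**
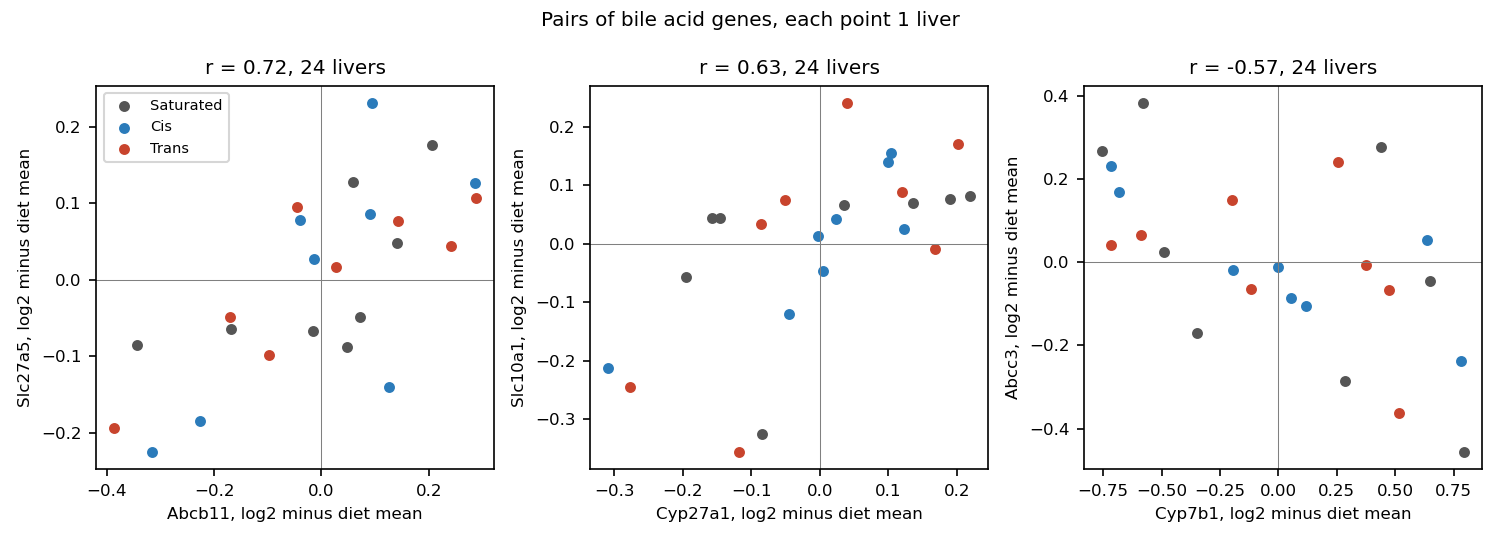
log2 value minus the diet mean in each of 24 livers for 3 pairs of genes, with diets by color. Abcb11 with Slc27a5 and Cyp27a1 with Slc10a1 rise together in all 3 diets, and Cyp7b1 with Abcc3 falls.

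The genes whose liver-to-liver pattern was most like that of each member were sought among 8298 genes with a mean signal over 20, as a description without a test. Cyp7b1 had the closest companions, C8b (r = 0.88), Hsd3b3 (0.86) and Hsd3b5 (0.85), the first a complement component and the others steroid dehydrogenases of the liver. For Slc27a5 they were Cyp4f15 (0.85), Sardh (0.85) and Pigr (0.84), and for Abcb11 Fermt2 (0.80), Pigr (0.79) and Hal (0.78). Abcc3 was nearest to Cdk6 (0.85), Paqr7 (0.79) and Cyp2d26 (0.78). Slc10a1 was nearest to Mlxipl, the carbohydrate response factor ChREBP (0.79), followed by Srbd1 (0.72) and Sucnr1 (0.71). Cyp27a1 was nearest to Plekhb1 (0.75), to Cyp2c70 (0.72), which was also lower in Trans and Cis than in Saturated livers at the unadjusted limit, and to Entpd8 (0.70). Cyp7a1 went with Ifi27 (0.78), Ttc39b (0.77) and Phrf1 (0.73), and Cyp8b1 with Ubqln1 (0.75), Arsg (0.73) and Tmem135 (0.72). The nearest genes of Baat were Sec63 (0.82), Rfesd (0.75) and Cpox (0.73), and those of Nr0b2 were BC031181 (0.74), Car8 (0.71) and Exph5 (0.69).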

How the data were processed

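Liver RNA of 24 mice, 8 per diet by the labels, was measured on Affymetrix Mouse Gene 1.1 ST arrays, each mouse on its own array. The authors normalized the scans by RMA (which corrects background, makes array distributions equal by quantiles and summarizes probes), and deposited log2 values, from 0.309 to 13.46, for 35556 probe sets. RMA gives arrays near equal medians, so a shift common to all genes could not be seen. Probe sets with 1 gene (21218, for 18820 genes) were used, the one of highest mean for each gene, while 12457 with no gene and 1881 with several were tested but not named.

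All probe sets were fitted with diet as the factor of 3 levels in R 4.3.3 with limma 3.58.1 (lmFit, and eBayes without trend and not robust, 21 residual degrees of freedom). Tests were two-sided, p was adjusted by Benjamini-Hochberg for each comparison over the whole array, and a gene was called under 0.05. Intervals are at 95% from the same fit. Exact permutation tests of single genes used all 12870 regroupings of 8 against 8, and correlations 100000 permutations within diets. The number of arrays limits the precision. The procedure was tested on simulated data.

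Named genes were the 10 members, up to 4 genes per other bile acid list with the smallest p among those under 0.05 unadjusted, and the 3 genes most like each member. The members, the bile acid lists, the cell type markers (hepatocyte, cholangiocyte, Kupffer, endothelial and stellate), and the pericentral, periportal and clock genes were chosen with earlier results of these data known. The alternatives were other variance estimates, weights, normalizations, filters, scales and tests, a replicate block, and leaving out livers. Leaving out Trans replicates 1 and 4 together was chosen after seeing the data.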

Additional observations from a re-analysis of the deposited data

Results flagged for a closer look

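In each of 30 groups of 8 livers (10 genes in 3 diets) the highest and the lowest liver were compared with the others by Dixon's ratio of gap to range, which chance passes in about 1 group in 20, and 2 groups passed. Cyp27a1 in Cis replicate 6 had a log2 value of 9.286, below the next Cis liver at 9.549 and the highest at 9.716, a ratio of 0.611, which is above the 95% critical value for 8 samples. Slc10a1 in Saturated replicate 6 had a log2 value of 11.2, below the next Saturated liver at 11.47 and the highest at 11.61, a ratio of 0.662. Cis replicate 6 was the lowest Cis liver for 4 of the 10 genes and Saturated replicate 6 the lowest Saturated liver for 3.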

How the results depend on the processing

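No bile acid gene was called under any alternative run, and over 1020 values of the 10 genes 999 kept their sign. The 21 changes of sign fell in 7 small differences of Trans versus Cis or Cis versus Saturated (Cyp7a1, Cyp8b1, Cyp27a1, Slc10a1 and Slc27a5 in the first, Cyp7b1 and Slc27a5 in the second). The count of genes at an unadjusted p under 0.05 in Trans versus Cis was 0, and was 1 with the 2 diets alone, with the replicate block, with arrays centred on their medians and with quantile normalization repeated. It ranged from 0 to 2 when each liver was left out in turn. The cause was not tested. Leaving out 1 liver moved some uncalled differences by over 1.5 times. Versus Saturated, Cyp8b1 reached −0.07 in Trans (without Trans replicate 4) and −0.10 in Cis (without Cis replicate 4), Cyp7a1 −0.17 in Cis (without Cis replicate 8) and, in Trans, Nr0b2 −0.03 (without Saturated replicate 3), Baat −0.06 and Abcb11 −0.07 (both without Trans replicate 1), and Cyp7b1 −0.20 (without Saturated replicate 3). With the replicate block, Baat in Trans versus Cis had an unadjusted p of 0.048 and an adjusted p of 0.795. After the diet means were taken off, livers of the same number in different diets correlated between −0.0682 and 0.0883. Their median was 0.0187, against −0.00311 for other pairs across diets. The numbers were not taken as pairs, and 4 of 24 livers correlated best with a liver of their own number. No other probe set of a member was there to try. With 8 arrays per diet, the intervals given for Cyp7a1 and Cyp7b1 remain wide.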

Other observations

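Genes of the liver zones were counted in the same way. Of 9 pericentral hepatocyte genes, 7 had a higher mean in Trans than in Saturated livers (median log2 difference 0.06), and of 5 measured periportal genes 4 had a lower one (−0.11), with 0 higher and 1 lower, and 0 in either direction, at an unadjusted p under 0.05. Of 6 Kupffer cell markers, 5 were lower in Trans and 6 in Cis than in Saturated livers, by medians of −0.26 and −0.25, with 1 and 0 of them under that limit. Endothelial markers were higher in Trans than in Cis livers for 7 of 7 genes (median 0.11, 2 under the limit). Of 6 cholangiocyte markers 3 were higher in Trans than in Saturated livers, with 0 under the limit. None of these genes was called by limma in any comparison. Over all probe sets, 50.1% were lower in Trans than in Saturated, 51.1% in Trans than in Cis and 48.7% in Cis than in Saturated. Among the 8298 genes with a mean signal over 20 these shares were 51%, 44.8% and 56.5%. At the unadjusted limit stood 3.79% (higher) and 3.54% (lower) of all probe sets in Trans versus Saturated. The shares were 3.05% (higher) in Trans versus Cis and 3.27% (lower) in Cis versus Saturated.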
